A study of Mus musculus with 6 samples.

Results

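Natural killer (NK) and cytotoxic genes were followed through sorted proB cells as a group of 10 named genes: Ccl5, Gzma, Gzmb, Prf1, Il2rb, Nkg7, Klrd1, Klrk1, Ncr1 and Eomes. All 10 were found among the 22098 gene symbols of the table, each represented by its transcript with the highest mean value. RNA was sequenced from proB cells of the bone marrow of C57BL/6 mice aged 6 to 7 weeks, in 6 libraries with 1 library for each of 3 genotypes and 2 Hardy fractions. The genotypes were mice mutant in zinc finger 4 of the transcription factor Ikaros (Ikaros ZnF4-/-, called ZnF4), mice mutant in zinc finger 1 (Ikaros ZnF1-/-, called ZnF1) and wild type (wt). The fractions were C joined with C', here written fraction C, and the earlier fraction B. The series addresses which functions of Ikaros rest on single fingers of its DNA-binding domain. How many mice entered a library is not given in the labels, and no treatment is named there. Values are RPKM, reads scaled to transcript length and library size, rounded to 0.1 by the authors.

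NK cells are innate lymphocytes that kill infected or transformed cells by releasing granules. The granule protein perforin opens a path for granzymes, proteases that start death of the target cell. Receptors of the killer cell lectin-like and natural cytotoxicity families decide whether a target is attacked, and IL-15 signals through the receptor chain encoded by Il2rb keep the cells alive. In bone marrow NK cells and B cells both arise from lymphoid progenitors, and proB cells are not known for a cytotoxic programme.

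B-lineage markers were found in every library, and none of the 15 B-lineage genes examined was listed at 0 in any of them. Their sum ran from 2534.2 RPKM (ZnF1, fraction C) to 5821.5 RPKM (ZnF4, fraction B). None of 18 granulocyte and monocyte genes or 12 erythroid genes was listed at 0 either, so this does not measure purity. Ikzf1, the mutated gene, stood at 425.1, 154.1 and 169.4 RPKM in ZnF4, ZnF1 and wt of fraction C and at 431.6, 181.5 and 150.3 RPKM in fraction B, values per transcript that do not resolve a finger. The ZnF1 library of fraction C stood apart. Its 18 granulocyte and monocyte genes summed to 44081.7 RPKM, against 1048.8 to 3936.8 RPKM in the other 5 libraries. Xist was listed at 0 in all 4 mutant libraries and at 91.9 and 81.3 RPKM in wt, so the sex of the mice cannot be told apart from genotype in comparisons with wt. Depth is unknown, and with 1 library per genotype and fraction a difference between 2 libraries has no replicate check. A small number of admixed NK cells and expression in the proB cells themselves cannot be told apart in these bulk libraries, nor can fewer cells of a type and less RNA per cell.

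Among the granule genes, Gzma, which encodes the tryptase-like granzyme A, stood at 0.4 RPKM in ZnF4, 16.1 RPKM in ZnF1 and 8.1 RPKM in wt in fraction C. In fraction B it was listed at 0 in ZnF4 and stood at 10.6 RPKM in ZnF1 and 17.0 RPKM in wt. Both ZnF4 libraries lay below the other 4, as they did for each of the 10 genes and for 19.1% of all genes past the filter of a mean of 1 RPKM. Gzmb, the granzyme B gene, was scarcer throughout, at 0.3 RPKM in ZnF4, 4.1 RPKM in ZnF1 and 1.7 RPKM in wt in fraction C. In fraction B it was listed at 0 in ZnF4, with 0.7 RPKM in ZnF1 and 2.1 RPKM in wt. Prf1, which encodes perforin, stood at 0.3, 1.7 and 2.5 RPKM in ZnF4, ZnF1 and wt in fraction C. Its values in fraction B were 0.1, 1.9 and 4.0 RPKM in ZnF4, ZnF1 and wt. The perforin gene was thus lower in each mutant than in wt of the same fraction, and lowest in ZnF4.

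Nkg7, a membrane protein of cytotoxic granules, was the exception to near-absence in ZnF4. It stood at 6.6 RPKM in ZnF4, 43.2 RPKM in ZnF1 and 10.1 RPKM in wt in fraction C, and at 2.4, 9.9 and 16.5 RPKM in ZnF4, ZnF1 and wt in fraction B. ZnF4 was again lowest in each fraction, but its fraction C value was within 1.46-fold of wt on the log2(RPKM + 1) scale, while ZnF1 of fraction C held the highest value of any of the 10 genes in any library.

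Ccl5, a chemokine made by NK and effector T cells, was at 1.2 RPKM in ZnF4, 29.1 RPKM in ZnF1 and 12.3 RPKM in wt in fraction C. In fraction B it was listed at 0 in ZnF4 and stood at 14.1 RPKM in ZnF1 and 28.0 RPKM in wt. It was the most abundant of the 10 in both wt libraries.

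The receptor genes followed the same division. Il2rb, the receptor beta chain shared by IL-2 and IL-15, stood at 0.3, 15.1 and 7.9 RPKM in ZnF4, ZnF1 and wt in fraction C and at 0.1, 8.7 and 15.3 RPKM in fraction B. Ncr1, which encodes the activating receptor NKp46 that marks mouse NK cells, was listed at 0 in both ZnF4 libraries. It stood at 4.7 RPKM in ZnF1 and 3.2 RPKM in wt in fraction C, and at 4.1 and 6.0 RPKM in ZnF1 and wt in fraction B. Ncr1 was the single gene of the 10 listed at 0 in ZnF4 of both fractions.

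Klrd1, the CD94 chain that pairs with NKG2 receptors, stood at 0.3, 3.2 and 3.4 RPKM in ZnF4, ZnF1 and wt in fraction C. In fraction B it was listed at 0 in ZnF4 and stood at 7.6 RPKM in both ZnF1 and wt. Its ZnF1 and wt values thus lay close together in both fractions. Klrk1, the activating receptor NKG2D, stood at 0.1, 2.6 and 1.4 RPKM in ZnF4, ZnF1 and wt in fraction C. In fraction B it was listed at 0 in ZnF4 and stood at 1.4 RPKM in ZnF1 and 3.1 RPKM in wt. A second Klrk1 transcript in the table did not exceed 0.1 RPKM in any library. Klrd1 and Klrk1 are adjacent protein-coding genes of the NK gene complex on chromosome 6 and lie on opposite strands.

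Eomes, a T-box transcription factor of NK and memory T cells, was the scarcest, at 0.1, 1.1 and 1.1 RPKM in ZnF4, ZnF1 and wt in fraction C. In fraction B it was listed at 0 in ZnF4 and stood at 1.0 RPKM in ZnF1 and 2.1 RPKM in wt. Its mean of 0.9 RPKM put it below the filter of 1 RPKM used for tests, which the other 9 genes passed. Its second transcript stood at 0.0, 1.1 and 0.8 RPKM in fraction C and at 0.0, 0.6 and 1.5 RPKM in fraction B (ZnF4, ZnF1, wt). An antisense RNA gene overlaps Eomes in the GENCODE annotation, and whether strand was used in counting is not given in the sources used here.

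**Figure D1:**
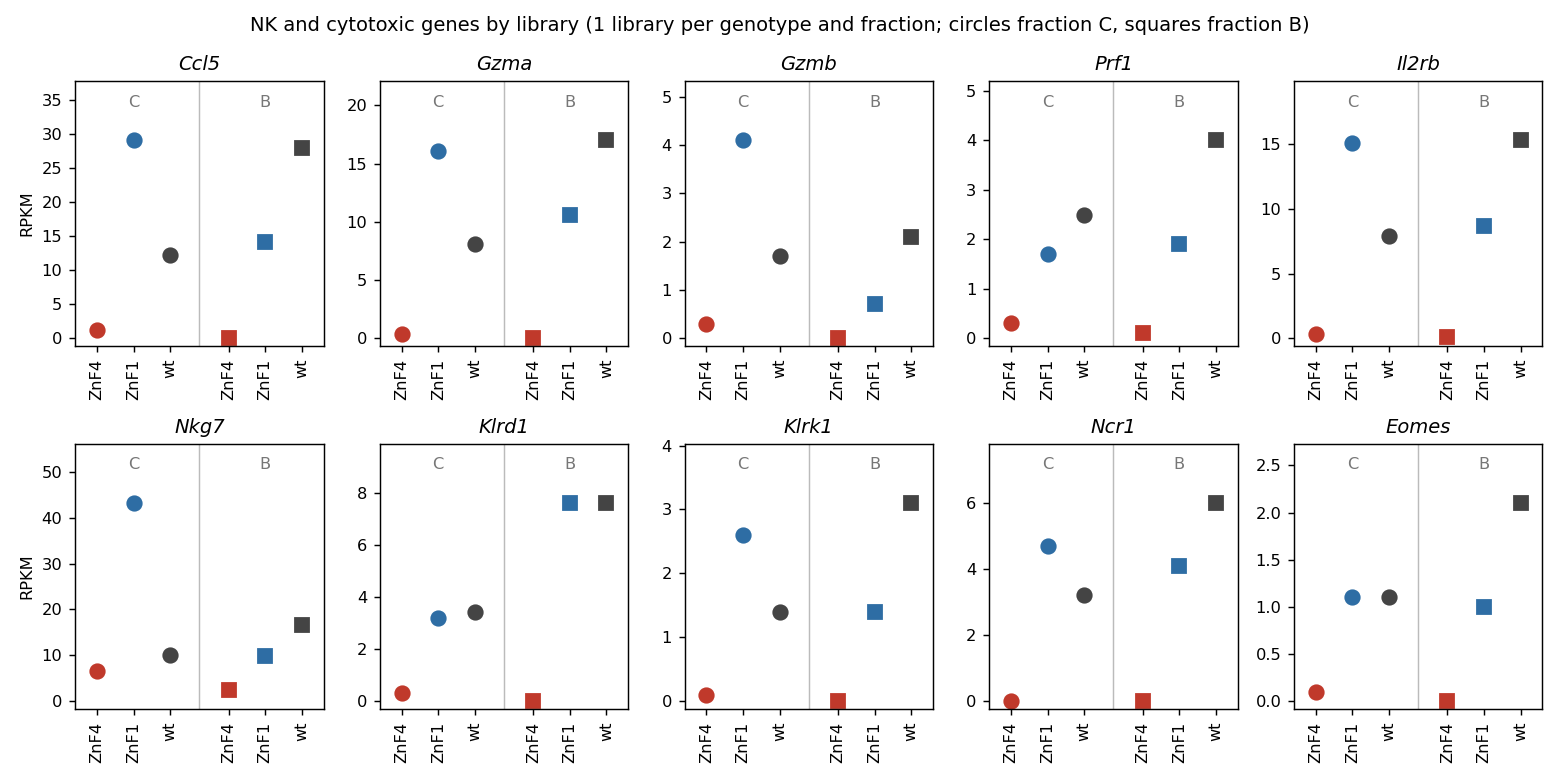
RPKM of each of the 10 NK and cytotoxic genes (one panel per gene, linear axis from 0) in the 6 libraries, with ZnF4, ZnF1 and wt of fraction C as circles and of fraction B as squares. The ZnF4 points lie at the bottom of every panel, at or near 0 for 9 genes and at 6.6 and 2.4 RPKM for Nkg7.

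In order of level, ZnF4 of fraction B was the lowest library for 9 of the 10 genes and tied with ZnF4 of fraction C for Ncr1. The highest library was wt of fraction B for 6 genes and ZnF1 of fraction C for Ccl5, Gzmb and Nkg7, with wt and ZnF1 of fraction B tied for Klrd1. Some neighbours at the top hardly differed, such as ZnF1 of fraction C and wt of fraction B for Ccl5 (29.1 and 28.0 RPKM) and for Il2rb (15.1 and 15.3 RPKM). With 1 library each, their spread is not known.

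Upstream sequence is shown for 4 genes because the fingers altered here belong to the DNA-binding domain of Ikaros. The genes were also low together in ZnF4. Which finger reads which letters was not tested. RefSeq promoter windows (GRCm38.p6, from 250 bases before to 50 after the start site) matched 7 of the 10 genes, with none for Ccl5, Il2rb and Klrd1. The 4 windows are Gzma (chr13:113100932-113101231, minus strand), Prf1 (chr10:61297586-61297885, plus strand), Nkg7 (chr7:43436888-43437187, plus strand) and Ncr1 (chr7:4337465-4337764, plus strand, the first of its start sites). They are written 5′ to 3′ on the strand of the gene, with capitals for the Ikaros core GGGAA or its complement TTCCC and for the Runx core TGTGGT or its complement ACCACA.
Gzma: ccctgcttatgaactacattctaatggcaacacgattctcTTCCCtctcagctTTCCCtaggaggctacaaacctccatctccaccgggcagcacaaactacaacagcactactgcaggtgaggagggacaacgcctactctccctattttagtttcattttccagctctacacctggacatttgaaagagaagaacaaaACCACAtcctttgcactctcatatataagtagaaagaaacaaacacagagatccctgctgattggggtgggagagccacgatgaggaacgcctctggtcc
Prf1: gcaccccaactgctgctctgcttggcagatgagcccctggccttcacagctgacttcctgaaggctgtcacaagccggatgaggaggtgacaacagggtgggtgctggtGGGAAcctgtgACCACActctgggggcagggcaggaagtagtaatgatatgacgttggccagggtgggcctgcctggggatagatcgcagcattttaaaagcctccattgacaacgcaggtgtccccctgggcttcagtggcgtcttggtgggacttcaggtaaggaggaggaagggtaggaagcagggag
Nkg7: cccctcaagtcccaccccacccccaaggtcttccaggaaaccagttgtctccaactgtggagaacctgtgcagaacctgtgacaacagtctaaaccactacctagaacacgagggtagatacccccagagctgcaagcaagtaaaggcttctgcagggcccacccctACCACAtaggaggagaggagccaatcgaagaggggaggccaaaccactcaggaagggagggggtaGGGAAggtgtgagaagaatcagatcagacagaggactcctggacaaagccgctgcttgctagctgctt
Ncr1: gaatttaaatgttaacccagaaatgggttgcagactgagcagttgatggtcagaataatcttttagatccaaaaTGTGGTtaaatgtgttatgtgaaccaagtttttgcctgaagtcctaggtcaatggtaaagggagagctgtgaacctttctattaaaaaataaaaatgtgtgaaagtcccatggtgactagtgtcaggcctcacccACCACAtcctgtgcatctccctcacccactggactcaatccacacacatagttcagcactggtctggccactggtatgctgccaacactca
The letters GGGAA, searched on both strands, were found in 3 of the 7 windows (Gzma, Prf1 and Nkg7), against 62.35% of 27025 promoter windows of the same length. GGGAA holds the Ets core GGAA, so a match names no single factor. TGTGGT, the core read by Runx factors, was found in 6 of the 7 (all but Eomes), against 16.92% of all windows. The T-box letters GGTGTGA were found in Nkg7 alone, directly after its GGGAA, against 3.96% of all windows. These matches are descriptions of sequence, and binding was not measured.

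ZnF4 was first set against wt, a comparison in which the sex of the mice cannot be told apart from genotype. Every one of the 10 genes was lower in ZnF4, in fraction C (53.0% of all genes were) and in fraction B (55.8% were). In fraction C the fold on the log2(RPKM + 1) scale was 6.05 for Ccl5, 6.5 for Gzma, 6.85 for Il2rb, 2.69 for Prf1, 3.38 for Klrd1 and 2.18 for Klrk1. In fraction B Il2rb was 14.8-fold, Nkg7 5.15-fold and Prf1 4.55-fold lower, and the other 7 genes were listed at 0 in ZnF4. Genes listed at 0 in ZnF4 of fraction B made up 1.08% of the 10888 genes with at least 1 RPKM in wt of that fraction.

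Values lower by 2-fold or more were found for 8 of the 10 genes in fraction C, where 6.12% of the 10943 genes past the filter were as low, and for 10 of 10 in fraction B, where 9.81% were. In both fractions together the count was 8 of 10, against 4.73% of all genes. Nkg7 and Eomes were the 2 genes short of 2-fold in fraction C.

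Fitted over all 6 libraries with fraction as an additive term, limma gave log2 differences for ZnF4 minus wt of -3.73 for Ccl5 (SE 0.62, adjusted p = 0.121), -3.44 for Gzma (SE 0.45, adjusted p = 0.101), -3.33 for Il2rb (SE 0.44, adjusted p = 0.101) and -2.44 for Ncr1 (SE 0.33, adjusted p = 0.101). Klrd1 followed at -2.43 (adjusted p = 0.131), Prf1 at -1.81 (0.124), Klrk1 at -1.58 (0.188), Nkg7 at -1.46 (0.349) and Gzmb at -1.34 (0.284). None of the 9 passed at an adjusted p of 0.05, as 0.0274% of all genes did, and 7 of 9 had an unadjusted p under 0.05 as lower, against 9.74% of all genes. Estimates for genes listed at 0 depend on the pseudocount and are not bounds. Without the ZnF1 library of fraction C, or without that of fraction B, 8 of the 9 passed, all but Nkg7, and so did 31.6% and 30.8% of all genes. Without any 1 of the other 4 libraries 0 passed. Without wt of fraction B the estimates were -0.33 for Nkg7, -0.75 for Gzmb and -1.01 for Klrk1, and without wt of fraction C Nkg7 was at -2.58.

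**Figure D2:**
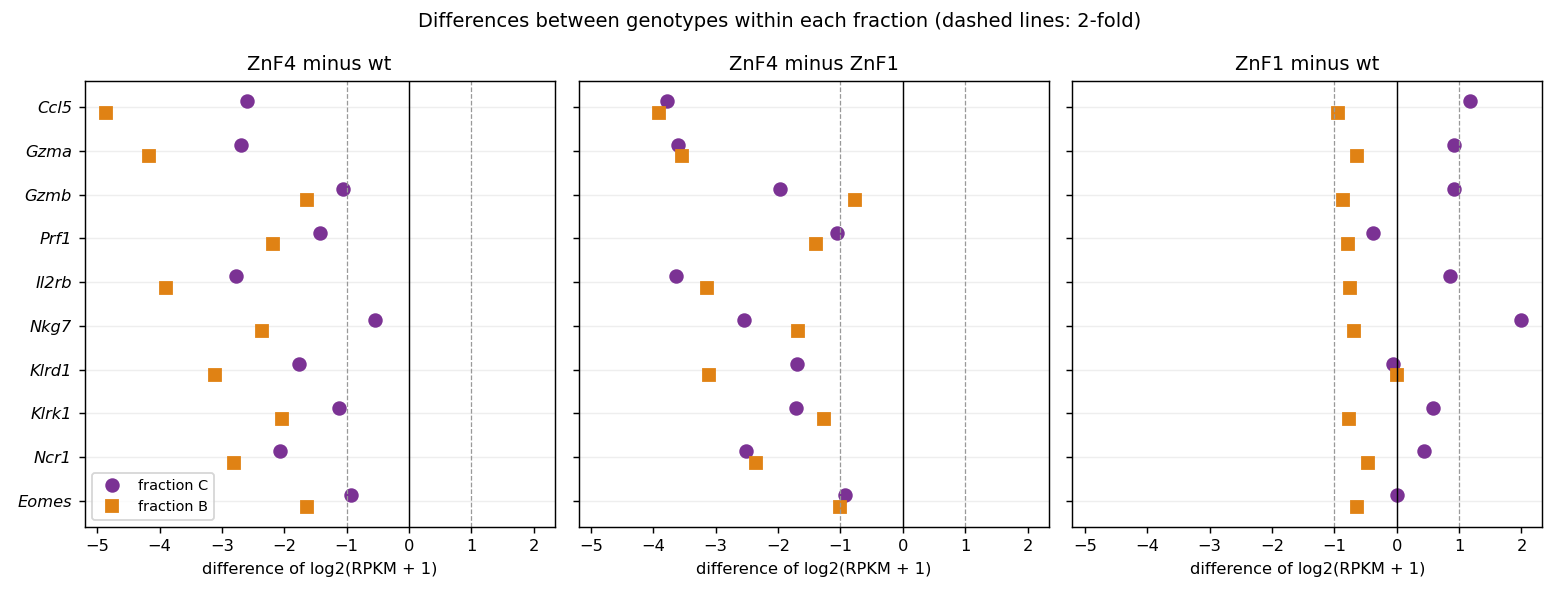
Difference of log2(RPKM + 1) between genotypes for the 10 genes, with fraction C as purple circles and fraction B as orange squares and dashed lines at 2-fold. ZnF4 minus wt and ZnF4 minus ZnF1 lie left of 0 for every gene, while ZnF1 minus wt lies left of 0 in fraction B for 9 genes and right of 0 in fraction C for 7.

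The mutants can also be set against each other, and Xist was listed at 0 in both. Each of the 10 genes was lower in ZnF4 than in ZnF1, in fraction C (40.8% of all genes were) and in fraction B (60.8% were). The count at least 2-fold lower was 9 of 10 in fraction C, where 14.1% of all genes were, and 9 of 10 in fraction B, where 10.9% were. It was 8 of 10 in both fractions, against 5.45% of all genes. The exceptions were Eomes in fraction C and Gzmb in fraction B.

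Gzma fell in ZnF4 relative to ZnF1 by limma (log2 difference -3.57, SE 0.45, adjusted p = 0.0494, lower in 2 of 2 fractions), the single call among the 9 genes tested, where 0.676% of all genes were called as lower. Il2rb (-3.39, SE 0.44, adjusted p = 0.0503), Ncr1 (-2.43, SE 0.33, adjusted p = 0.0528) and Ccl5 (-3.85, SE 0.62, adjusted p = 0.0647) missed the threshold, and all 9 had an unadjusted p under 0.05, against 12.3% of all genes as lower. The other estimates were -2.4 for Klrd1 (adjusted p = 0.077), -2.11 for Nkg7 (0.173), -1.49 for Klrk1 (0.149), -1.37 for Gzmb (0.216) and -1.23 for Prf1 (0.124). The Gzma call was lost without ZnF4 of fraction B (adjusted p = 0.459) or of fraction C (0.268), with no filter (0.103) and under 3 other settings, within a range of 0.00629 to 0.459 over 16 alternatives. Without ZnF1 of fraction C 5 of the 9 genes passed, without ZnF1 of fraction B 9, and without either wt library 3. The shares of all genes that passed were 24.6% and 37.5% without ZnF1 of fractions C and B, and 1.3% and 1.44% without wt of C and B. Leaving out ZnF1 of fraction C put Gzmb at -0.62 and Nkg7 at -1.23, and leaving out ZnF1 of fraction B put Gzmb at -2.12. Eomes entered limma with its transcripts summed, at -1.46 for ZnF4 minus ZnF1 (adjusted p = 0.117) and -1.80 for ZnF4 minus wt (adjusted p = 0.138). With no filter its adjusted p was 0.167 and 0.185 in the same order.

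For ZnF1 and wt, which differ in the first finger and also in Xist, the fractions went different ways. In fraction C, 7 of the 10 genes were higher in ZnF1 (40.1% of all genes were), 2 were lower (58.8% of all genes were) and Eomes was equal, while 9 were higher and 1 lower when libraries were rescaled to the median of all genes or to B-lineage genes. The ratio of RPKM ran from 0.68 (Prf1) to 4.28 (Nkg7) with a median of 1.88. Ccl5 and Nkg7 were at least 2-fold higher (2.26-fold and 3.98-fold on the log2(RPKM + 1) scale), 2 of 10 against 12.6% of all genes, and 0 were at least 2-fold lower, against 7.39%. In fraction B, 9 of the 10 were lower in ZnF1 (43.8% of all genes were) and Klrd1 was equal, with 10 lower under either rescaling. The ratio of RPKM ran from 0.333 (Gzmb) to 1.0 (Klrd1) with a median of 0.536, and 0 of 10 were at least 2-fold lower, against 2.21% of all genes. Whether the fractions differ was not tested, since an interaction term leaves no residual degrees of freedom.

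None of the 9 genes passed in limma for ZnF1 minus wt (0.0274% of all genes did), with 0 at an unadjusted p under 0.05, against 9.3% of all genes, and adjusted p from 0.549 (Prf1) to 0.993 (Ncr1). The estimates ran from -0.58 (Prf1) to 0.66 (Nkg7).

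Granulocyte, basophil and erythroid markers were high in the ZnF1 library of fraction C, by larger ratios to wt than the NK genes. The 10 NK and cytotoxic genes summed to 9.6 RPKM in ZnF4, 120.9 RPKM in ZnF1 and 51.7 RPKM in wt in fraction C and to 2.6, 60.0 and 101.7 RPKM in fraction B. Relative to wt of fraction C, the ZnF1 library was at 234% for the NK genes, 1593% for 18 granulocyte and monocyte genes, 2464% for 9 basophil and mast cell genes and 935% for 12 erythroid genes, with 0 markers of these 3 lists at 0. It was at 212% for 14 plasmacytoid dendritic genes and at 91.1% for 20 T-cell genes. The T-cell sum hides members that moved apart. Lck made up 54.4 of 115.9 RPKM in wt of fraction C and stood at 16.7 RPKM in ZnF1. Of the 12 T-cell genes past the filter, 5 were at least 2-fold higher in ZnF1 (12.6% of all genes were). Another 3 were at least 2-fold lower (7.39% of all genes were). Basophil markers such as Mcpt8, a basophil protease, stood at 11.9, 171.7 and 5.3 RPKM in ZnF4, ZnF1 and wt of fraction C and at 4.2, 7.7 and 8.8 RPKM in fraction B. The part of these cells in the ZnF1 values was not tested.

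In ZnF4 most marker sums of other cells also lay below wt, and that of basophil and mast cell genes in fraction C lay above it. Relative to wt of fraction C, ZnF4 stood at 18.6% for the 10 NK genes, 65.3% for granulocyte and monocyte genes, 132% for basophil and mast cell genes, 70.8% for erythroid genes and 93.9% for 14 plasmacytoid dendritic genes. Relative to wt of fraction B it stood at 2.56%, 26.6%, 43.9%, 44.7% and 75.2% in the same order. Single plasmacytoid dendritic genes were as low in ZnF4 as the NK genes, though Irf8, a factor that B-lineage cells express too, made up 104.4 of their 180.5 RPKM in ZnF4 of fraction C. Siglech, a surface lectin of plasmacytoid dendritic cells, stood at 0.1, 33.0 and 7.5 RPKM in ZnF4, ZnF1 and wt of fraction C and at 0.1, 20.2 and 24.2 RPKM in fraction B. Runx2, a transcription factor, stood at 0.2, 9.5 and 1.9 RPKM in fraction C and at 0.1, 4.7 and 8.3 RPKM in fraction B. Of the 13 genes of that list past the filter, 7 were at least 2-fold lower in ZnF4 than wt in fraction C (6.12% of all genes were) and 9 in fraction B (9.81% were). Their median limma difference was -1.56, with 0 of 13 passing and 9 lower at an unadjusted p under 0.05, against 9.74% of all genes. Tlr9 went the other way, at 24.5, 11.6 and 5.2 RPKM in ZnF4, ZnF1 and wt of fraction C. It stood at 45.0, 10.7 and 11.8 RPKM in fraction B. It was the 1 gene of the 13 at least 2-fold higher in ZnF4 than wt, against 388 and 405 of all 10943 genes in fractions C and B. The 15 B-lineage genes stood at 160% of wt in ZnF4 of fraction C and at 138% in fraction B, by sums that also hide members that moved apart. In limma 10 of the 15 were higher in ZnF4 and 5 lower, against 4837 and 6105 of all 10943 genes. Among the lower, Dntt stood at 25.7, 281.2 and 335.4 RPKM in ZnF4, ZnF1 and wt of fraction C. Its values in fraction B were 18.7, 739.4 and 568.7 RPKM. The sum of 20 T-cell genes was 89.2% of wt in ZnF4 of fraction C and 82.2% in fraction B. Of the 12 past the filter, 3 were at least 2-fold lower in fraction C (6.12% of all genes were) and 5 in fraction B (9.81% were). Cd2 was higher in ZnF4 than wt, at 18.2, 7.1 and 9.1 RPKM in ZnF4, ZnF1 and wt of fraction C. Its values in fraction B were 47.8, 4.4 and 38.1 RPKM. The defining marker Cd3e, below the filter, was at 0.1, 2.2 and 0.6 RPKM in fraction C and at 0.0, 0.6 and 1.3 RPKM in fraction B. The part of admixed cells in the ZnF4 values was not tested.

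**Figure D3:**
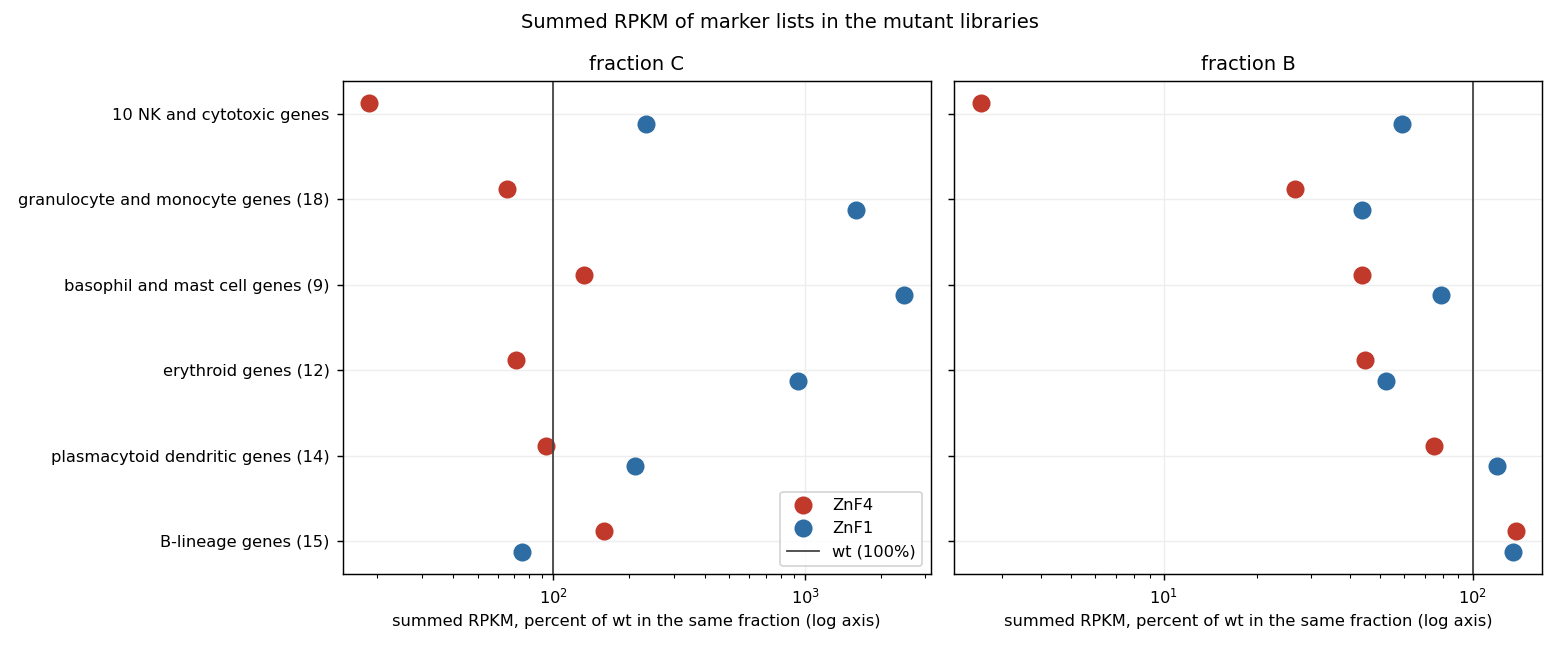
Summed RPKM of marker lists in the ZnF4 (red) and ZnF1 (blue) libraries as a percentage of wt in the same fraction, on a log axis, with the wt level as a line at 100%. Of the 6 lists drawn, the NK and cytotoxic genes lie farthest below wt in ZnF4 by their sums, at 18.6% in fraction C and 2.56% in fraction B. In ZnF4 the plasmacytoid dendritic sums are mostly Irf8 and hide members as low as the NK genes. In ZnF1 of fraction C the NK and cytotoxic genes stand at 234% of wt, below the granulocyte, basophil and erythroid genes.

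In wt, all 10 genes were lower in fraction C than in fraction B, as were 40.9% of all genes, though Gzmb was higher once libraries were rescaled on B-lineage genes. They had a ratio of RPKM between 0.439 (Ccl5) and 0.81 (Gzmb) and a median of 0.52. Ccl5 alone was at least 2-fold lower on the log2(RPKM + 1) scale, against 1.01% of all genes. In ZnF1, 8 of 10 were higher in fraction C (36.2% of all genes were) and 2 lower (62.4% were), with Gzmb at 5.86 and Nkg7 at 4.36 times its fraction B value in RPKM. Gzmb and Nkg7 were at least 2-fold higher, against 10.1% of all genes. Klrd1 was the 1 gene at least 2-fold lower in ZnF1, against 4.16% of all genes, at 3.2 RPKM in fraction C and 7.6 RPKM in fraction B. In ZnF4, 9 of 10 were higher in fraction C (61.3% of all genes were), and 2, Ccl5 and Nkg7, at least 2-fold (2.76% of all genes), from levels at or near 0 for all but Nkg7. Over all 6 libraries limma called 0 of the 9 genes for fraction C minus fraction B (0% of all genes were), with 0 at an unadjusted p under 0.05, against 4.67% of all genes.

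The proportions among the 10 genes were alike in wt of both fractions. Ccl5 held 23.8% and 27.5% of their summed RPKM in wt of fractions C and B, Gzma 15.7% and 16.7%, and Nkg7 19.5% and 16.2%. In ZnF1 of fraction B these shares were 23.5% for Ccl5, 17.7% for Gzma, 14.5% for Il2rb and 16.5% for Nkg7, while Klrd1 held 12.7%, against 7.47% in wt of that fraction. In ZnF1 of fraction C Nkg7 held 35.7% and Klrd1 2.65%, against 19.5% and 6.58% in wt. In ZnF4 Nkg7 alone made up 68.8% of the sum in fraction C and 92.3% in fraction B. Without Nkg7, the other 9 genes summed to 3.0 RPKM in ZnF4, 77.7 RPKM in ZnF1 and 41.6 RPKM in wt of fraction C and to 0.2, 50.1 and 85.2 RPKM in fraction B.

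**Figure D4:**
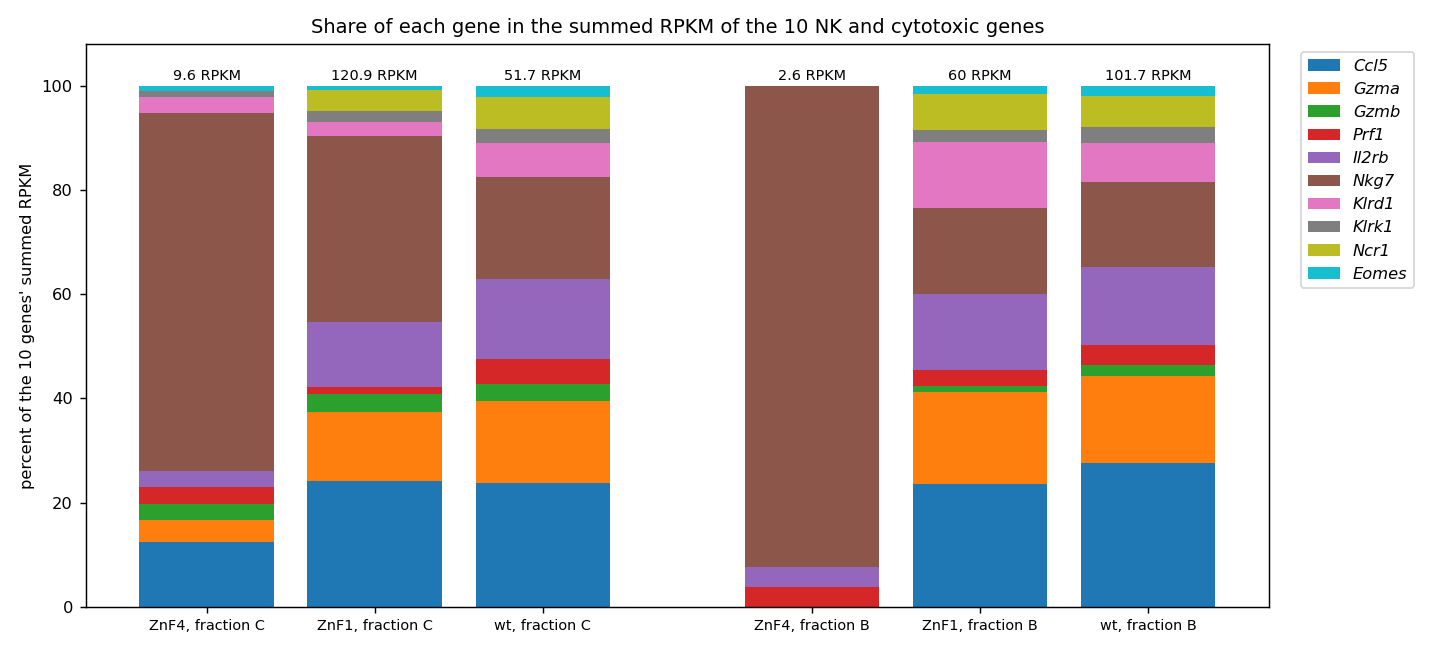
Share of each of the 10 genes in their summed RPKM, one bar per library with the sum printed above it. Both wt bars and ZnF1 of fraction B are similar in make-up, whereas Nkg7 fills 68.8% and 92.3% of the ZnF4 bars of fractions C and B and 35.7% of ZnF1 in fraction C.

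Other genes of NK cells gave a similar but less uniform picture. Of 43 further NK and cytotoxic genes, 17 passed the filter of 1 RPKM. Of these 17, ZnF4 lay at least 2-fold under wt for 10 in fraction C (6.12% of all genes were) and for 15 in fraction B (9.81% were), and 0 were at least 2-fold higher. The median limma difference was -1.28, against -0.07 over all genes tested, and 0 of the 17 passed, with 11 lower (9.74% of all genes were) and 1 higher at an unadjusted p under 0.05. Ctsw, a cathepsin of cytotoxic lymphocytes, stood at 0.7, 8.9 and 4.0 RPKM in ZnF4, ZnF1 and wt of fraction C and at 0.4, 5.3 and 9.0 RPKM in fraction B. Tnfsf10, the death ligand TRAIL, stood at 1.8, 13.1 and 12.1 RPKM in fraction C and at 0.7, 23.1 and 16.0 RPKM in fraction B. Among the 17, Slamf7, an adhesion receptor that B-lineage cells also carry, was the exception. It stood at 122.8, 39.9 and 79.3 RPKM in fraction C and 108.1, 46.5 and 56.8 RPKM in fraction B. Below the filter, the granzyme gene Gzmm was also highest in ZnF4. Its values were 1.9, 0.3 and 0.5 RPKM in fraction C and 1.1, 0.6 and 0.7 RPKM in fraction B.

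For ZnF4 minus ZnF1, Klrb1c fell (limma log2 difference -2.45, SE 0.3, adjusted p = 0.0487), the single call among those 17. The call was lost with no filter on low values, where 0 genes were called in this comparison. It was also lost when either ZnF4 library was left out. Klrb1c encodes NK1.1, the marker by which C57BL/6 NK cells are stained, and stood at 0.3, 4.7 and 3.5 RPKM in ZnF4, ZnF1 and wt of fraction C and at 0.0, 5.8 and 5.0 RPKM in fraction B. Genes of the Klra and Klrb1 families have close copies, so their values are uncertain.

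Of 14 transcription factors of NK and innate lymphoid cells, 13 were in the table and 7 passed the filter. Stat4, which carries the IL-12 signal, fell in ZnF4 relative to ZnF1 (limma log2 difference -4.01, SE 0.4, adjusted p = 0.0377). This call too was lost with no filter, where 0 genes were called, and when either ZnF4 library was left out. Stat4 stood at 1.5 RPKM in ZnF4, 23.7 RPKM in ZnF1 and 11.8 RPKM in wt of fraction C. Its values in fraction B were 0.5, 38.3 and 16.6 RPKM. Runx3, a regulator of cytotoxic lymphocytes, stood at 4.6, 12.3 and 12.5 RPKM in fraction C and at 3.4, 16.9 and 12.9 RPKM in fraction B, with adjusted p = 0.06 in limma for ZnF4 minus ZnF1. Tbx21, the T-box factor T-bet, was below the filter and listed at 0 in both ZnF4 libraries. It stood at 0.6 and 0.8 RPKM in ZnF1 and wt of fraction C and at 0.8 and 1.6 RPKM in fraction B. Not all of the list followed. Ets1 stood at 159.1, 100.1 and 156.5 RPKM in ZnF4, ZnF1 and wt of fraction C, and 149.5, 135.9 and 145.8 RPKM in fraction B. Tox was higher in ZnF4 than in ZnF1 and lower than in wt. Its values were 1.7, 0.2 and 3.2 RPKM in fraction C and 0.8, 0.1 and 1.6 RPKM in fraction B. The list's median difference for ZnF4 minus wt was -0.66, against -0.07 over all genes, with 0 of 7 passing and 3 lower at an unadjusted p under 0.05, against 9.74% of all genes.

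Adaptors and cytokine receptor chains used by NK receptors had a median for ZnF4 minus wt of -0.3, with 0 of 15 passing and 4 lower at an unadjusted p under 0.05 in limma, against 9.74% of all genes. Hcst, the DAP10 adaptor that NKG2D needs, stood at 0.7, 22.2 and 4.3 RPKM in ZnF4, ZnF1 and wt of fraction C and at 0.2, 4.0 and 6.2 RPKM in fraction B. Fcer1g, an adaptor shared with myeloid cells, stood at 7.2, 283.4 and 25.5 RPKM in fraction C and at 2.8, 23.8 and 40.7 RPKM in fraction B. Zap70, a kinase below lymphocyte receptors, did not follow the NK genes, at 10.8, 2.0 and 10.5 RPKM in fraction C and 7.9, 1.9 and 5.0 RPKM in fraction B. Granule traffic genes had a median of -0.4, with 0 of 10 passing and 2 lower at an unadjusted p under 0.05, against the same 9.74%. Stxbp2, a syntaxin-binding protein of granule release that other blood cells use too, stood at 72.5, 83.4 and 44.8 RPKM in fraction C and at 86.1, 51.8 and 52.5 RPKM in fraction B.

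Likeness of pattern was measured as Pearson's r of log2(RPKM + 1) over the 6 libraries with the mean of the 10 genes, among 10934 other genes past the filter. The 8 most like were Ctsw (0.995), Oasl1 (0.993), Cd7 (0.99), Tmem150b (0.989), Ipcef1 (0.987), Nek6 (0.986), Plcb3 (0.986) and Ms4a4b (0.986). A value of 0.9 or more was reached by 286 genes, over points that share 1 library per genotype and fraction. Cd7, a surface protein of NK and T cells, stood at 0.7, 27.8 and 7.8 RPKM in ZnF4, ZnF1 and wt of fraction C and at 0.2, 11.6 and 18.6 RPKM in fraction B. Against the mean of the other 9, the r of each of the 10 genes ran from 0.83 (Nkg7) to 0.997 (Gzma).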

How the data were processed

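The deposited values are RPKM for each RefSeq transcript, per the file headers, which the authors gave to 0.1. The submitters' processing notes name TopHat, bedtools and mm9 without versions or roles. Whether strand was used, and how shared reads were divided, is not stated in the sources used here. Transcript lengths come from the deposited table, which held 26532 entries (1 without a name, left out) and 0 columns of other samples. Whole reads were not recovered: of the low values tested in a library, 20.9% to 41.3% fell on a whole-read step, where chance gives 11.9% to 30.2%, so depth is unknown.

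The members and gene lists were chosen with earlier results of these data known. Each symbol is represented by its transcript with the highest mean, and 10943 genes had a mean of at least 1 RPKM. Folds are on the log2(RPKM + 1) scale. limma 3.58.1 (R 4.3.3, lmFit and eBayes with trend, two-sided, Benjamini-Hochberg over all tested genes, threshold 0.05) used all 6 libraries, with additive terms for genotype and fraction, which leaves 2 residual degrees of freedom. The model was also run on simulated data with independent noise and additive effects, which does not show that calls hold in these libraries. P-values rest on departures from additive genotype and fraction terms in these libraries only, not on spread between replicate libraries. Named genes are the 10 members, up to 4 genes at the ends of each list, list genes of at least 1 RPKM from the NK-related lists, and the 8 genes of most similar pattern. Tbx21, Cd3e, Gzmm and Eomes's second transcript were named after their values were seen. Pseudocounts of 0.25 and 0.1, filters, summed transcripts, 2 rescalings, other terms, 4 libraries, no trend and each library left out were alternatives. An item withheld for evaluation is not reported here.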

Additional observations from a re-analysis of the deposited data

Results flagged for a closer look

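For several genes the difference between fraction C and fraction B, or between genotypes, had opposite signs in the groups set side by side. With 1 library per group none of these differences was tested. All values here are on the log2(RPKM + 1) scale.

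ZnF1 minus wt was above 0 in fraction C and below 0 in fraction B for 7 genes. The effect in fraction C minus that in fraction B was 2.12 for Ccl5, 1.54 for Gzma, 1.78 for Gzmb, 1.60 for Il2rb, 2.68 for Nkg7, 1.36 for Klrk1 and 0.90 for Ncr1. The same figures are the step from fraction B to C in ZnF1 less that in wt, which had opposite signs for these 7 and for Eomes (0.63). Granulocyte, basophil and erythroid genes were high in ZnF1 of fraction C, and their part in these values was not tested.

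The step from B to C was above 0 in ZnF4 and below 0 in wt for 9 genes, with differences of 2.26 for Ccl5, 1.47 for Gzma, 0.58 for Gzmb, 0.76 for Prf1, 1.11 for Il2rb, 1.82 for Nkg7, 1.345 for Klrd1, 0.91 for Klrk1 and 0.70 for Eomes. In ZnF4 all of these but Nkg7 stood between 0 and 1.2 RPKM. The step was above 0 in ZnF4 and below 0 in ZnF1 for Prf1 (difference 0.34) and Klrd1 (1.41).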

How the results depend on the processing

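For ZnF4 minus wt and ZnF4 minus ZnF1 the estimates of the 9 tested genes stayed below 0 under all alternatives run. Genes called by limma for ZnF4 minus wt (3) became 5 at a pseudocount of 0.25, 0 without a filter, 6 on the median rescaling, 0 on the B-lineage rescaling, 84 without the fraction term, 3494 in the 4 libraries compared, 6 without trend and 0 to 3453 with a library left out. Of the NK genes 0 were called, against 3 without the fraction term, 8 in the 4 libraries and 0 to 8 with a library left out. For ZnF1 minus wt (3 genes) the counts were 0 without a filter, on the B-lineage rescaling and in the 4 libraries, 6 without the fraction term, 5 without trend and 0 to 4116 with a library left out. For ZnF4 minus ZnF1 (199) they were 0 without a filter, 355 and 18 on the median and B-lineage rescalings, 451 without the fraction term and 0 to 4109 with a library left out. NK genes called there (1) became 3 at pseudocounts of 0.25 and 0.1, on the median rescaling and in the 4 libraries, 2 with summed transcripts, 4 without the fraction term, 0 without a filter, at a filter of 0.25, on the B-lineage rescaling and without trend, and 0 to 9 with a library left out. The B-lineage rescaling moved the median of all genes for fraction C minus B to 0.47, against 0.04 as deposited. No paired analysis was possible because the labels carry no replicate numbers.

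NK genes at least 2-fold higher in ZnF1 than wt in fraction C (2) became 4 and 5 on the median and B-lineage rescalings. Those at least 2-fold lower in fraction B (0) became 2 and 4 at pseudocounts of 0.25 and 0.1 and 2 on the B-lineage rescaling. For fraction C against B, those higher in ZnF4 (2) became 5 and 9 at pseudocounts of 0.25 and 0.1, those higher in ZnF1 (2) became 7 on the B-lineage rescaling, and the 1 lower in ZnF1 became 0 on both rescalings. Those lower in wt (1) became 4 at both smaller pseudocounts, 3 on the median rescaling and 0 on the B-lineage rescaling. The B-lineage rescaling moved the median of all genes for fraction C minus B in ZnF1 to 0.78, against -0.16 as deposited. Counts on that rescaling therefore include a shift of the whole data set. Shares of all genes under these settings were not computed.

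Estimates of both signs were seen for these genes, none of them called. For ZnF1 minus wt, Gzmb became -0.075 and -0.12 at pseudocounts of 0.25 and 0.1, Klrk1 0.0042 on the B-lineage rescaling and Ncr1 0.0011, 0.025 and 0.054 at a pseudocount of 0.1 and on the 2 rescalings. With a library left out they ran from -0.98 to 1.21 for Ccl5, -0.62 to 0.89 for Gzma, -0.72 to 0.77 for Gzmb, -0.63 to 0.73 for Il2rb, -0.47 to 1.78 for Nkg7, -0.40 to 0.34 for Klrd1, -0.66 to 0.47 for Klrk1 and -0.42 to 0.40 for Ncr1. For fraction C minus B, Prf1 became 0.064 at a pseudocount of 0.1 and 0.19 on the B-lineage rescaling, Klrk1 0.084 and 0.25 at pseudocounts of 0.25 and 0.1 and 0.0030 and 0.29 on the rescalings, and Ncr1 0.18 on the B-lineage rescaling. With a library left out they ran from -0.065 to 1.07 for Ccl5, -0.25 to 0.52 for Gzma, -0.31 to 0.069 for Prf1, -0.32 to 0.49 for Il2rb, -0.32 to 0.36 for Klrk1 and -0.37 to 0.080 for Ncr1. Depth is unknown, and values are rounded to 0.1 RPKM, which limits folds of genes near 0.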

Other observations

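Among the genes set beside the NK group, many stood high in the ZnF1 library of fraction C by more than any of the 10. All 18 granulocyte and monocyte genes were at least 2-fold higher there than in wt, as were 11 of 12 erythroid genes (12.6% of all genes were). Ccl3, Ccl4 and Id2 are examples from the NK-related lists. The chemokine Ccl3 was at 0.5, 73.1 and 1.9 RPKM in ZnF4, ZnF1 and wt of fraction C and at 0.6, 1.7 and 4.2 RPKM in fraction B. Its neighbour Ccl4 was at 0.0, 36.1 and 1.2 RPKM in fraction C and at 0.0, 1.5 and 1.8 RPKM in fraction B. Both are made by activated NK cells and by myeloid cells, and Ccl5, a related chemokine, was at 29.1 RPKM in the same library against 12.3 RPKM in wt. Id2, an inhibitor of E proteins needed by innate lymphocytes, was at 3.4, 29.4 and 3.9 RPKM in fraction C and at 3.1, 6.0 and 7.2 RPKM in fraction B.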
